A study of Mus musculus with 8 samples.

Results

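The classical complement pathway was followed here through 7 genes in the gastrocnemius, the main calf muscle, of mice: C1qa, C1qb, C1qc, C1ra, C2, C4b and Serping1. They were chosen by gene symbol, and each had 1 row among the 35949 gene rows of the deposited count table. All 7 passed the filter on low counts that left 14064 genes for testing. According to the series' design text, the muscle came from aged recipients of blood-forming (hematopoietic) stem cells that were either controls or overexpressed SIRT3, a mitochondrial deacetylase. The genotype labels divide the 8 libraries into WT (n = 4) and T3TG (n = 4), taken to be recipients of control and of SIRT3 cells in that order, so both groups had a transplant. Titles of the WT libraries begin with Mx1 and those of the T3TG libraries with T3, while the genotype labels say only WT and T3TG. The recipients' strain and age in months, the construct behind the overexpression, and whether each library is a separate animal are not stated, so p-values measure the spread between these libraries.

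The classical pathway begins when C1q, a bouquet-shaped protein built from A, B and C chains, binds antibody complexes or damaged surfaces. Bound C1q activates the attached proteases C1r and C1s, which cleave C4 and C2 into the enzyme that splits C3, and C1 inhibitor (the product of Serping1) shuts the proteases off. Most plasma complement is made in the liver, whereas C1q comes largely from macrophages and other myeloid cells in the tissues. In mice, C1q has been linked to poorer muscle repair in old age.

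Library totals as deposited lay between 16.2 and 28.1 M counts, highest in T3TG replicate 3. Each of the 7 genes had at least 38 deposited counts in every library. T3TG replicates 2 and 3 stood apart technically: among values from 10 to 99, 97.5% and 98.0% were even numbers there, against 50.5% to 52.5% in the other 6 libraries. T3TG replicate 3 also stood apart in content. Its summed red cell transcripts (5 genes, hemoglobins and Alas2) were 523 CPM, against 67.6 to 79.3 in the other T3TG libraries and 70.6 to 133 in WT. CPM are counts relative to the library's total after TMM scaling. Muscle identity was plain, with Acta1, the actin of muscle fibers, at means of 32709 CPM in WT and 32506 in T3TG. Sirt3 itself had means of 18.9 CPM in WT and 17.7 CPM in T3TG muscle (log2 fold change -0.09, SE 0.13, edgeR adjusted p = 0.881), which does not check its level in the transplanted cells.

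All 7 genes had a higher mean in T3TG than in WT, and none passed the test over all genes. The median log2 fold change of the 7 was 0.60, against -0.00427 over all 14064 genes, of which 49.1% had a positive value. With edgeR's quasi-likelihood test and Benjamini-Hochberg adjustment, 0 of the 7 passed an adjusted p of 0.05, where 0.0711% of all genes did. At an unadjusted p under 0.05, 6 of the 7 (all but C4b) were higher, beside a background of 5.88%. The count was 3 without WT replicate 1 and 3 without WT replicate 3, where 4.6% and 5.16% of all genes were higher at that threshold. DESeq2's Wald test also called 0 of the 7, beside a background of 0.747%. In this bulk tissue, more cells of a type and more RNA per cell cannot be told apart.

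One library carried much of the difference. T3TG replicate 3 was the highest of the 8 libraries for 6 of the 7 genes (all but C2), as it was for 15.3% of all tested genes. Without it, all 7 log2 fold changes were still positive, but their median was 0.33 in place of 0.60 and 4 of the 7 (C1qb, C1qc, C1ra and Serping1) had an unadjusted p under 0.05, where 4.78% of all genes were higher at that threshold. Without both even-count libraries (T3TG replicates 2 and 3) the median was 0.28, and 0 of the 7 had an unadjusted p under 0.05, where 3.14% of all genes were higher at that threshold. With edgeR 0 of the 7 passed the adjusted threshold in either fit, where 0.021% and 0% of all genes did.

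**Figure D1:**
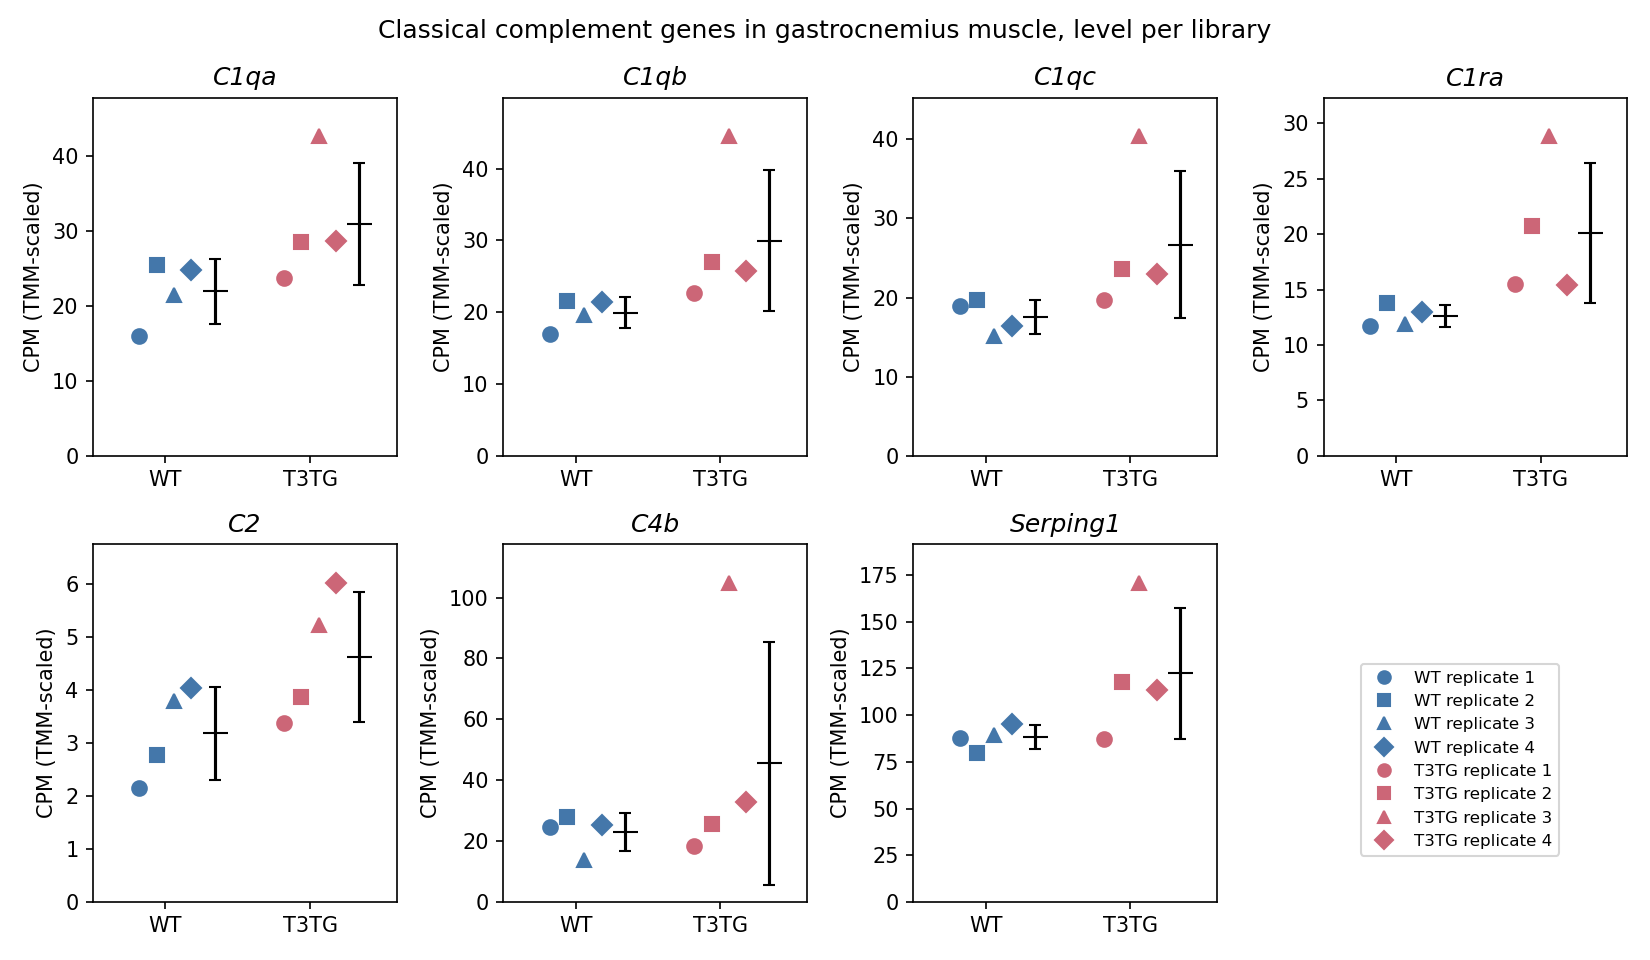
Level of each of the 7 genes (vertical axes, TMM-scaled CPM, each starting at 0) in the 4 WT and 4 T3TG libraries, 1 symbol per library, with the group mean and SD as a black bar. T3TG replicate 3 (red triangle) is the highest point in every panel but C2, and only for C1qb and C1ra does every T3TG library lie above every WT library.

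The genes of the 3 C1q chains sit side by side on chromosome 4 (mm10, minus strand), within 18675 bases from 136880129 to 136898803, in the order C1qb, C1qc, C1qa. No window of 1 read length (150 bases) is shared between their transcripts, so a full-length read of one chain matches no other. The stretches before the starts of C1qb and C1qc are shown as the starts of 2 of these neighbours. They come from RefSeq on GRCm38.p6 (the assembly of mm10). The C1qb stretch ends at the RefSeq start, the C1qc stretch ends where the GENCODE M21 gene model begins, at position -152 from the RefSeq start, and no such sequence was matched for C1qa, C2, C4b or Serping1. Capitals mark 2 motifs of factors that act in macrophages, GAGGAA (a PU.1-type core) and TGCTGA (a Maf core), each searched on both strands.
C1qb, chr4:136886201-136886450, minus strand: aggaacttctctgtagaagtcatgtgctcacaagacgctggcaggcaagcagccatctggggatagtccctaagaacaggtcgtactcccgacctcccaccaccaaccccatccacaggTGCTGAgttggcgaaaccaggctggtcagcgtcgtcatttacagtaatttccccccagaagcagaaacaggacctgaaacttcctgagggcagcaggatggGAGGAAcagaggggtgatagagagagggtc
C1qc, chr4:136893066-136893164, minus strand: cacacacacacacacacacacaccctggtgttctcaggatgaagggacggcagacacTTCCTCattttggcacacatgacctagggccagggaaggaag

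In the 250 bases before the RefSeq start, from which positions are counted, C1qb held GAGGAA at position -30 and TGCTGA at -131, and C1qc held GAGGAA on the opposite strand (TTCCTC) at -193. These matches are a description: 23.3% of 32851 mouse promoter windows of that length hold GAGGAA and 16.1% hold TGCTGA. An interferon response type motif (GAAA repeated after a gap of any 2 bases, in 2.98% of windows) and a STAT type motif (TTCNNNGAA, in 7.02%) matched neither window. The window of C1ra held none of the 4 motifs. Only its first 34 bases lie before the start of the GENCODE M21 gene model, and the rest lies inside it.

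C1qa, the A chain, had 16.02, 25.5, 21.4 and 24.8 CPM in WT replicates 1 to 4 and 23.7, 28.5, 42.6 and 28.7 CPM in T3TG replicates 1 to 4. The groups overlapped through T3TG replicate 1, which lay below WT replicates 2 and 4, while WT replicate 1 was the lowest library. The log2 fold change was 0.50 (SE 0.20, edgeR adjusted p = 0.538), and p was 0.0857 in an exact permutation test (two-sided, 8 libraries). By its 95% interval the level in T3TG could be 1.04 to 1.91 times the WT level.

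C1qb, the B chain, had 17.0, 21.6, 19.6 and 21.4 CPM in WT and 22.7, 26.9, 44.5 and 25.7 CPM in T3TG. The groups did not overlap, a pattern shared by 2 of the 7 genes (C1qb and C1ra) and by 3.12% of all tested genes. The WT mean was 19.9 ± 2.15 CPM and the T3TG mean 29.9 ± 9.86 CPM (SD, n = 4 each). In the edgeR fit the difference was 0.60 on the log2 scale (SE 0.20, adjusted p = 0.435). Its exact permutation p was 0.0286, the smallest that 4 against 4 libraries allow.

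C1qc, the C chain, had 18.9, 19.7, 15.1 and 16.3 CPM in WT and 19.7, 23.6, 40.4 and 22.9 CPM in T3TG. The groups met at 19.7 CPM, where T3TG replicate 1 was just below WT replicate 2. On the log2 scale T3TG was 0.61 above WT (SE 0.21), with an adjusted p of 0.464 in edgeR and an exact permutation p of 0.0571. For all 3 chains T3TG replicate 3 was higher than the mean of the other T3TG libraries, by 1.58-fold for C1qa, 1.77-fold for C1qb and 1.83-fold for C1qc, and those other 3 libraries averaged 1.23, 1.26 and 1.26 times the WT mean.

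Scaled to transcript length, C1qb kept the steadiest share of the C1q transcripts, 32.7% to 35.4% over the 8 libraries. C1qa made up 33.0% to 41.7% and C1qc 23.8% to 33.6%. The widest departure came from WT replicate 1, the lowest library for C1qa and for the C1q sum, where the 3 chains were almost equal. T3TG replicate 3, with the most C1q, had shares of 35.5%, 35.4% and 29.1%.

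C1q was set beside the markers of macrophages, its main source in tissues. Of 20 tested markers 18 were higher in T3TG (median log2 fold change 0.57), 10 at an unadjusted p under 0.05 (5.88% of all genes). None passed over all genes with edgeR (0.0711% of all genes), while DESeq2 called Mrc1 (0.747% of all genes). Without T3TG replicates 2 and 3, 2 of 21 tested markers were higher at that unadjusted threshold (3.14% of all genes) and the median was 0.29. Csf1r, whose product receives the macrophage growth signal CSF1, had 17.6 to 21.1 CPM in WT and 22.1 to 34.4 CPM in T3TG. The sum of the 3 C1q genes was 2.49 to 3.56 times Csf1r in WT and 2.53 to 3.70 times in T3TG, so the groups overlapped almost completely on that ratio. Against the sum of all 21 markers, C1q amounted to 16.2 to 24.97 CPM per 100 marker CPM in WT and 22.6 to 25.8 in T3TG, again overlapping. The marker sum itself was 246 to 345 CPM in WT, 293 to 320 CPM in T3TG replicates 1, 2 and 4, and 493 CPM in T3TG replicate 3. No marker was at 0 in all libraries, and the part of macrophage RNA in the C1q difference was not tested. Aif1 was one of the 2 tested markers with a lower value in T3TG (log2 fold change -0.05).

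**Figure D2:**
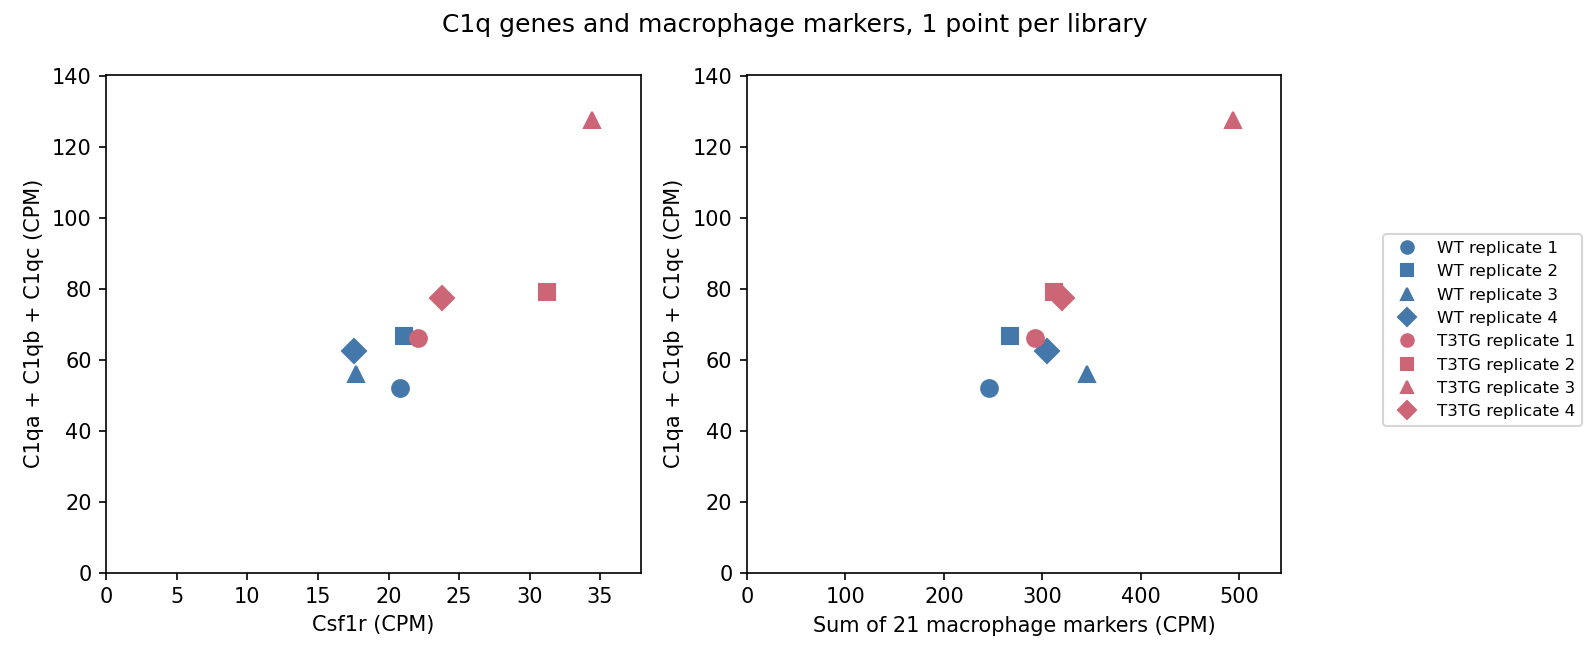
Sum of C1qa, C1qb and C1qc (vertical axes, CPM) against Csf1r (left, CPM) and against the sum of 21 macrophage markers (right, CPM), 1 point per library. T3TG replicate 3 is at the upper right in both panels, with a C1q sum of 128 CPM, and the other 7 libraries lie between 51.9 and 79.0 CPM.

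C1ra, which encodes the protease C1r that first cuts itself and then C1s, came closest to the threshold. It had 11.7, 13.8, 11.9 and 13.01 CPM in WT and 15.5, 20.7, 28.8 and 15.4 CPM in T3TG. The groups did not overlap, and the spread was small in WT (12.6 ± 0.974 CPM) and wider in T3TG (20.1 ± 6.32 CPM, SD, n = 4 each). Its log2 fold change of 0.68 (SE 0.18) had an unadjusted p of 0.00242 and an edgeR adjusted p of 0.239, placing C1ra at rank 142 of 14064 by p-value. DESeq2 gave an adjusted p of 0.0594, and the exact permutation p was 0.0286. The gene spans bases 124512405 to 124523443 of chromosome 6 (mm10). Its close copy is C1rb, whose transcript is 98.0% identical, with 26.3% of 150-base windows of C1ra found in it. C1rb had at most 2 counts in a library, and how reads common to both were assigned is not stated.

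C1s1 encodes C1s, the partner protease that cuts C4 and C2, and lies 6901 bases from C1ra. Its difference was smaller in value, with a WT mean of 46.3 ± 2.50 CPM and a T3TG mean of 52.0 ± 7.99 CPM (SD, n = 4 each, edgeR log2 fold change 0.17, SE 0.10, adjusted p = 0.703). Per transcript length, C1s1 stood at 4.09, 3.13, 3.97 and 3.76 times C1ra in WT replicates 1 to 4 and at 3.04, 2.65, 2.19 and 2.95 times in T3TG replicates 1 to 4. The ratio was lower in every T3TG library than in every WT library, by a narrow margin between WT replicate 2 and T3TG replicate 1. This ratio was computed with the C1ra counts known and is given without a test.

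**Figure D3:**
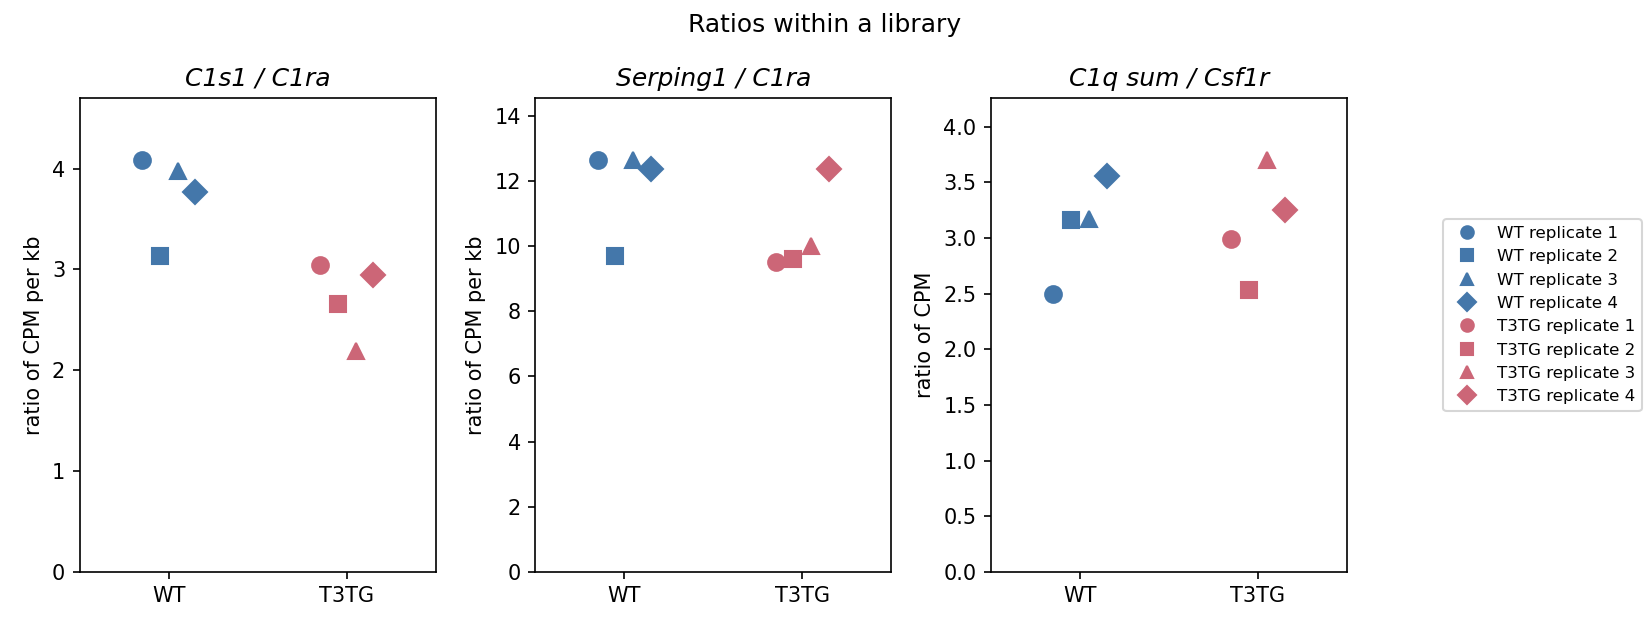
Ratios within each library, 1 symbol per library: C1s1 to C1ra and Serping1 to C1ra in CPM per kb of transcript, and the C1q sum to Csf1r in CPM. The C1s1 to C1ra ratio runs from 3.13 to 4.09 in WT and from 2.19 to 3.04 in T3TG, whereas the groups overlap in the other panels.

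Serping1, which encodes C1 inhibitor, the serpin that inactivates C1r and C1s, was the most abundant member per transcript length. Its level was 49.9 ± 3.70 CPM per kb in WT and 69.2 ± 19.9 CPM per kb in T3TG, ahead of the C1q chains at 14.6 to 21.1 CPM per kb in WT. In CPM the libraries had 88.0, 79.6, 89.5 and 95.4 in WT and 87.2, 118, 171 and 113 in T3TG. T3TG replicate 1 lay inside the WT range and the other T3TG libraries above it. The log2 fold change was 0.47 (SE 0.18, edgeR adjusted p = 0.502, exact permutation p = 0.114). Per transcript length Serping1 stood at 9.71 to 12.7 times C1ra in WT and 9.51 to 12.4 times in T3TG. Serping1 lies on chromosome 2 from 84765387 to 84775444 (mm10).

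Serping1 is inducible by interferon, and interferon response genes were given beside it. Of 12 tested, 11 were higher in T3TG (median log2 fold change 0.37), 3 at an unadjusted p under 0.05 (Bst2, Ifi27l2a and Rsad2; 5.88% of all genes) and 0 over all genes with edgeR. DESeq2 called Ifi27l2a (adjusted p = 0.00129), where it called 0.747% of all genes. The part of interferon response genes in the Serping1 difference was not tested.

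C4b, whose protein is cleaved by C1s and becomes the anchor of the C3-splitting enzyme, had the largest log2 fold change and the least even values. WT replicates 1 to 4 had 24.8, 27.9, 13.8 and 25.2 CPM, and T3TG replicates 1 to 4 had 18.5, 25.7, 105 and 32.8 CPM. T3TG replicate 3 was 4.09 times the mean of the other T3TG libraries, T3TG replicates 1 and 2 lay inside the WT range, and T3TG replicate 4 was slightly above it. The log2 fold change was 0.998 (SE 0.62, edgeR adjusted p = 0.730, exact permutation p = 0.343), and it was 0.16 (SE 0.28) without T3TG replicate 3. The interval of the main value ran from -0.50 to 2.49 on the log2 scale.

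**Figure D4:**
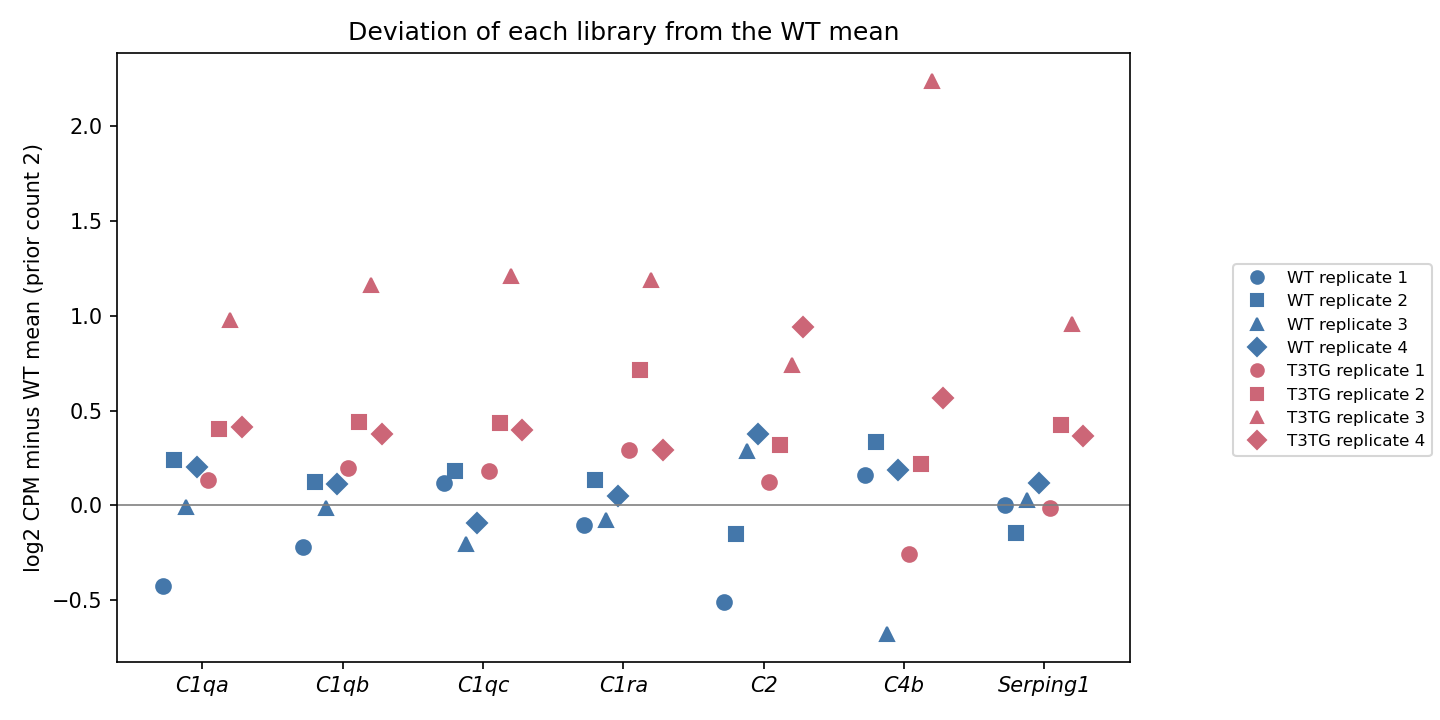
Deviation of each library from the WT mean (vertical axis, log2 CPM with a prior count of 2) for the 7 genes, 1 symbol per library. T3TG replicate 3 is 0.74 to 1.21 above the WT mean for 6 genes and 2.24 above it for C4b, while T3TG replicate 1 stays within 0.30 of the WT mean in either direction for all 7.

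C4b lies on chromosome 17 from 34728380 to 34743882 (mm10), 65209 bases from its copy C4a, which encodes the sex-limited protein in mice. Their transcripts are 96.1% identical over 5367 aligned bases, and 8.26% of the 150-base windows of C4b occur in C4a. The stretch below has the most differences of any 60 bases within an exon and shows how reads of the copies can be told apart. It lies in exon 21 of C4b (chr17:34735430-34735489, minus strand), comes from the GENCODE M21 transcripts, and capitals mark the 13 bases that differ.
C4b: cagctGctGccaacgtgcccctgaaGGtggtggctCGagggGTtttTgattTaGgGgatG
C4a: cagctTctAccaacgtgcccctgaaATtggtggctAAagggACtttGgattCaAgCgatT

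C4a itself had 2 to 15 counts per library, 0.442% to 2.74% of the C4 counts, so the high value of T3TG replicate 3 was recorded almost wholly under C4b.

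C2, the protease that joins C4b in that enzyme, was the least abundant member, also per transcript length, with 38 to 144 counts per library. It had 2.14, 2.78, 3.79 and 4.04 CPM in WT and 3.37, 3.88, 5.23 and 6.03 CPM in T3TG. Here T3TG replicate 4, not replicate 3, was the highest library, and T3TG replicates 1 and 2 fell inside the WT range. The difference of 0.53 on the log2 scale (SE 0.25) had an edgeR adjusted p of 0.599 and an exact permutation p of 0.143. C2 lies on chromosome 17 from 34862604 to 34898265 (mm10) and overlaps a read-through gene model, Gm20547, so its count depends on how overlapping genes were handled.

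**Figure D5:**
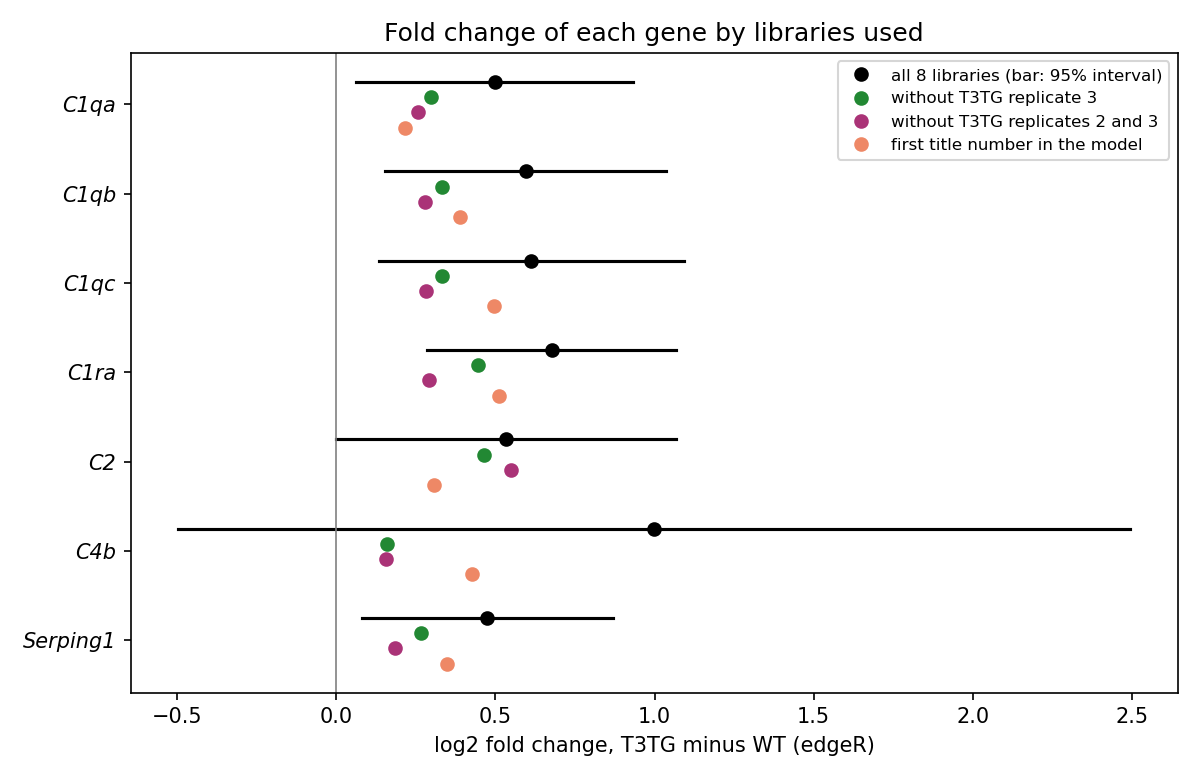
Log2 fold change of T3TG against WT (horizontal axis, edgeR) for the 7 genes, from all 8 libraries with its 95% interval, without T3TG replicate 3, without T3TG replicates 2 and 3, and with the first title number in the model. All points lie above 0, and for the C1q chains, C1ra, C4b and Serping1 every fit other than that of all 8 libraries lies closer to 0.

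The 7 genes did not share one profile over the libraries. Likeness was measured as the root mean square difference of log2 CPM over the 8 libraries after centring each gene, as a description. C1qa and C1qb were the closest pair (0.109), followed by C1qb and C1ra (0.112), and C2 and C4b were the farthest apart (0.720). Among 13104 other genes with a mean of at least 1 CPM, the nearest to the mean C1q profile were Fxyd5 (0.0484), Slfn2 (0.107), Apoe (0.112), Cfp (0.1201) and Tmem176b (0.124), where the median gene was at 0.422. Cfp encodes properdin, which stabilises the alternative pathway's enzyme, and Apoe a lipid carrier abundant in macrophages.

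The nearest to C1ra were Cfp (0.0911), Slfn2, Alox5, Fxyd5 and the macrophage gene F13a1 (0.124). Serping1 was nearest to Ly6a (0.0570), the stem cell antigen that marks fibro-adipogenic progenitors, and then to Lin7a, Cp, Colec12 and Larp6. The markers of those progenitors, the mesenchymal cells between muscle fibers, were higher in T3TG in 12 of 12 (median log2 fold change 0.48), all 12 at an unadjusted p under 0.05 (5.88% of all genes) and 3 over all genes with edgeR (Pi16, Col3a1 and Mme; 0.0711% of all genes). Without T3TG replicate 3 edgeR called 1 of the 12 (0.021% of all genes). Without T3TG replicates 2 and 3 it called 0 (0% of all genes), with 7 higher at the unadjusted threshold (3.14% of all genes). Of 6 endothelial markers 6 were higher (median log2 fold change 0.29), 4 at an unadjusted p under 0.05 (5.88% of all genes). With edgeR 0 were called (0.0711% of all genes), while DESeq2 called Tie1 and Eng (0.747% of all genes). Without T3TG replicates 2 and 3, 2 of the 6 were higher at the unadjusted threshold (3.14% of all genes). The part of these cells in the differences of the 7 genes was not tested. C4b was nearest to Serpina3n (0.236), an acute phase serpin, then Isg20, Gm4951, Inhbb and C3 (0.383), and no gene came as near to it as the first genes of the other profiles did. C2 was nearest to Fam124a (0.114), Dpep1, Islr2, Ifngr1 and Chst14.

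Beyond the 7, a list of 52 complement and antibody receptor genes gave 51 rows in the table (no row under C5) and 31 tested genes. Of these 23 were higher and 8 lower in T3TG (median log2 fold change 0.35). Of the 31, 11 were higher at an unadjusted p under 0.05 (5.88% of all genes) and 0 were lower. With edgeR 0 passed over all genes, where 0.0711% of all genes did. DESeq2 called 2, Lrp1 (adjusted p = 0.0167) and Fcgr2b (adjusted p = 0.0477), where it called 0.747% of all genes. Without T3TG replicate 3, the unadjusted p was under 0.05 for 9 higher genes (4.78% of all genes) and 1 lower gene, and the median was 0.25.

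Downstream, C3, the hub that all complement routes cleave, had 82.3, 86.0, 68.9 and 76.9 CPM in WT and 80.3, 104, 205 and 116 CPM in T3TG. The groups overlapped through T3TG replicate 1, and T3TG replicate 3 was again the highest (log2 fold change 0.69, SE 0.29, edgeR adjusted p = 0.596). Of the lectin and alternative routes 7 of 12 genes were tested and 5 were higher, among them Cfb, the alternative pathway's protease (0.85, SE 0.24), and Fcna, a ficolin of macrophages (0.83, SE 0.29). Masp1 and Masp2, the lectin pathway's proteases, had -0.14 (SE 0.22) and -0.37 (SE 0.20), and Mbl1, Mbl2 and Fcnb had 0 counts in all libraries. Of the terminal components, which form the membrane pore, only C7 and C8g were tested, at 0.41 (SE 0.39) and -0.37 (SE 0.31).

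Receptors and regulators differed among themselves. Lrp1, an endocytic receptor that binds C1q, had every T3TG library above every WT library (86.6 ± 3.05 and 109 ± 7.86 CPM, SD, n = 4 each). That pattern held for 3.12% of all tested genes, and among the 31 tested genes of the list also for Fcgr2b and Cfp. Fcgr2b, the inhibitory antibody receptor, had 4.16 ± 0.523 and 7.79 ± 2.91 CPM, with no overlap of the groups, and Itgam, a chain of complement receptor 3, a log2 fold change of 0.91 (SE 0.29). The shields of cell membranes had log2 fold changes near 0 and none was called, with Cd55 at 0.07 (SE 0.12), Cd46 at -0.07 (SE 0.28), Cd59a at -0.13 (SE 0.08) and Cr1l at -0.07 (SE 0.11). Among soluble regulators Clu, clusterin, had 0.21 (SE 0.09), while C4bp, the gene of the C4 binding protein, had 0 counts in all libraries.

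Liver RNA was checked because hepatocytes make much of the body's complement. Alb and Apoa1, which define hepatocytes, had means under 1 CPM in both groups (Alb 0.179 and 0.198 CPM, Apoa1 0.0158 and 0.0285 CPM in WT and T3TG), Serpina1a was at 0 in all libraries, and T3TG replicate 3 had 0 counts of Alb. Of the 8 markers Hp alone was abundant enough to be tested (log2 fold change 1.55, SE 0.49, edgeR adjusted p = 0.425). Hp had 1.97, 9.58, 5.88 and 11.04 CPM in T3TG replicates 1 to 4, and Adipoq, an adipocyte hormone, had 2.06, 11.7, 5.88 and 19.6 CPM. Adipocyte markers were higher in T3TG in 5 of 5 tested (median log2 fold change 1.79). At an unadjusted p under 0.05 there were 3 (5.88% of all genes), and edgeR called 0 (0.0711% of all genes). Without T3TG replicates 2 and 3, 0 of 6 tested were at that unadjusted threshold (3.14% of all genes). Cfd, the alternative pathway's factor D and a product of adipocytes, had a log2 fold change of 1.61 (SE 0.70) and was highest in T3TG replicate 4, not replicate 3. The summed B and plasma cell markers were 14.9 CPM in T3TG replicate 3, against 3.44 to 6.96 CPM in the other T3TG libraries and 2.15 to 7.90 CPM in WT. Summed neutrophil markers were 18.2 CPM there, against 3.68 to 12.4 CPM and 5.73 to 10.02 CPM. The part of these cells and of red cell RNA in the high complement values of T3TG replicate 3 was not tested.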

How the data were processed

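PolyA RNA libraries of gastrocnemius muscle were sequenced as read pairs, per the labels' protocols. The submitters' processing notes list HISAT2 2.2.1, HTSeq 0.9.1, DESeq2 1.34.0 and the mm10 build. The authors deposited raw counts per gene symbol. The annotation and strand setting are not stated, so genes with near-identical copies or overlaps are uncertain. Of 35976 rows, 27 carry spreadsheet dates instead of symbols (0.0885% to 0.0961% of a library's counts) and were left out.

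Counts were filtered with filterByExpr, scaled with TMM and tested with edgeR 4.0.16 (quasi-likelihood, robust, R 4.3.3), T3TG minus WT, with Benjamini-Hochberg adjustment over 14064 genes. The SE is the absolute log2 fold change divided by the square root of F. DESeq2 1.42.0 was an alternative, with the others named in the closing section. Single genes were also compared by an exact permutation test (two-sided) of log2 CPM (prior count 2). Scripts were tested on simulated data. Positions and transcript lengths come from GENCODE M21 (GRCm38). The text names the 7 genes, partners from fixed lists, and per profile the 5 nearest genes; a few list members are not reported here. Members, lists and alternatives were chosen with earlier results of these data known.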

Additional observations from a re-analysis of the deposited data

Results flagged for a closer look

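The C4b level of T3TG replicate 3, 105 CPM, stood far from the other 3 T3TG libraries (18.5 to 32.8 CPM): its gap to the next library was 0.834 of the group's range, above Dixon's 95% critical value for 4 samples. It was the only one of 14 groups of 4 values (7 genes in 2 groups) to do so, and chance flags about 1 in 20 such groups. The rule was run on CPM and not on log2 CPM.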

How the results depend on the processing

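All 7 genes kept a positive log2 fold change and an adjusted p above 0.05 under all 16 alternatives run (112 values). Leaving out 1 library at a time, the log2 fold change ran from 0.30 to 0.61 for C1qa, 0.33 to 0.71 for C1qb, 0.33 to 0.73 for C1qc, 0.44 to 0.79 for C1ra, 0.38 to 0.67 for C2, 0.16 to 1.26 for C4b and 0.27 to 0.61 for Serping1. The lowest value came without T3TG replicate 3 for each gene but C2, where it came without WT replicate 1. The lowest adjusted p was 0.0594 (C1ra, DESeq2).

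The number of the 7 at an unadjusted p under 0.05 was 6 in the main analysis and 3 to 6 with 1 library left out, with 3 without WT replicate 1 and 3 without WT replicate 3. The count of genes called over all genes was 10 in the main analysis, 0 to 37 with 1 library left out, 52 with library totals only, 107 with no filter on low counts, 105 with DESeq2, 0 without T3TG replicates 2 and 3, and 30 at an adjusted p of 0.10. The causes were not tested. Halving the even-count libraries changed no log2 fold change of the 7 by more than 0.02.

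The first number in a title, of unstated meaning, is shared by some WT and T3TG libraries. With it as a replicate block, 4 genes were called, and the log2 fold changes were 0.22 (C1qa), 0.39 (C1qb), 0.50 (C1qc), 0.51 (C1ra), 0.31 (C2), 0.43 (C4b) and 0.35 (Serping1), with 0 of the 7 at an unadjusted p under 0.05, where 3.69% of all genes were higher at that threshold. The correlation of deviations between libraries with the same number ran from -0.0537 to 0.155. Between WT and T3TG libraries with different numbers it ran from -0.189 to 0.0847. T3TG replicates 2, 3 and 4 all share their number with WT replicate 4, so the same-number pairs are few and not independent. This check cannot decide whether the numbers pair the libraries.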
